A study of Homo sapiens with 6 samples.

Results

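The transcripts described are those of the human mitochondrial genome in PANC-1 cells, an established line of human pancreatic ductal adenocarcinoma. Genes were taken by position: all 37 genes whose locus in the deposited table lies on the mitochondrial chromosome, out of 58735 genes in all. They comprise 13 mRNAs, 2 rRNAs and 22 tRNAs. The rule itself uses position alone and no measured value.

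RNA-seq was performed on 6 samples in 2 groups of 3. The si-NC group received control siRNA and the si-METTL16 group received siRNA against METTL16, an RNA methyltransferase that deposits N6-methyladenosine. All samples were PANC-1 cells grown in DMEM with serum and antibiotics, and the comparison asks what changes when METTL16 is silenced. The titles name the controls si-NC and another label calls them WT. For the sequenced cells the methods name siRNA and a stable transfection, whereas their general section on silencing names short hairpin RNA. The methods call the samples of a group biological triplicates, without saying whether they were separate transfections or selections. The study designed more than 1 siRNA against METTL16, and which of them each sequenced sample received is not given in the sources used here.

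Counts summed to between 15725298 and 18054436 per sample. METTL16 itself had 1546, 1641 and 1764 counts in si-NC and 571, 528 and 627 counts in si-METTL16, and its CPM (counts scaled to a common total after TMM scaling) fell to 35.9% of control (log2 fold change -1.48, SE 0.07, edgeR quasi-likelihood test with Benjamini-Hochberg adjusted p = 8.3e-05). Of 8 ductal epithelial markers, all were measurable and 4 were lower in si-METTL16 (KRT7, KRT19, CDH1 and SOX9), where 17.5% of all genes tested were lower. EPCAM (log2 fold change 0.44) and KRT18 (0.20) stood on the other side without passing the test. Markers of fibroblasts, endothelial cells, leukocytes, acinar cells and islet cells summed over 14 genes to 4.26 to 5.07 CPM in si-NC and 1.80 to 2.78 CPM in si-METTL16, with 4 at 0 in every sample and only the leukocyte marker CD14 above the filter on low counts.

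The mitochondrial genome is a small circle of DNA present in many copies per cell. It encodes core subunits of the respiratory chain and of ATP synthase, and the rRNAs and tRNAs that translate them, whereas every other mitochondrial protein comes from the nucleus. Both strands are read by the polymerase POLRMT as long transcripts, from which the tRNAs are cut out so that the mRNAs and rRNAs between them are released. Transcription of the rRNA end, cutting, tailing by MTPAP and protection by LRPPRC and SLIRP together set how much of each RNA is present, although the genes share their promoters.

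In the GRCh38 assembly the mitochondrial chromosome has 16569 bases, and the 37 genes cover 92.7% of it. The coordinates of all 37 equal those of GENCODE release 44. At 25 of the 36 junctions along the sequence a gene touches or overlaps the next. The product of 28 genes lies on the plus strand of the assembly and is carried by the heavy-strand transcript, while MT-ND6 and 8 tRNAs are carried by the light-strand transcript. The 4 tRNA genes called higher after silencing are printed first, because they show how tightly these genes sit against the rRNAs and mRNAs. Each is on the plus strand of GRCh38, with the tRNA in capitals and 15 flanking bases on each side in lower case. MT-TF (chrM:577-647, printed as chrM:562-662) is followed without a gap by the small rRNA MT-RNR1, MT-TV (chrM:1602-1670, printed as chrM:1587-1685) lies between the 2 rRNAs and touches both, MT-TL1 (chrM:3230-3304, printed as chrM:3215-3319) follows the large rRNA MT-RNR2, and MT-TD (chrM:7518-7585, printed as chrM:7503-7600) ends where MT-CO2 begins.
MT-TF: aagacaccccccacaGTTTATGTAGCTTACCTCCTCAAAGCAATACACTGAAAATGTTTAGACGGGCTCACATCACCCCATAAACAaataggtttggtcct
MT-TV: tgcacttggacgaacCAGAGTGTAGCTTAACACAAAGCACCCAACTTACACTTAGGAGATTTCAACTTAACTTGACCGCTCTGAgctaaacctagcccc
MT-TL1: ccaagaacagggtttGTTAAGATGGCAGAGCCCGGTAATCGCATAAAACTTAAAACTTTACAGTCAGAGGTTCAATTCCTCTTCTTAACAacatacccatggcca
MT-TD: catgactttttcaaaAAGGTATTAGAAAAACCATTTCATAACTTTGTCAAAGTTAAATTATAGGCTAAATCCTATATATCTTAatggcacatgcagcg

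The mRNAs overlap each other as well. The end of MT-ATP8 and the start of MT-ATP6 share 46 bases, in capitals in the first line (chrM:8512-8587, plus strand), and the end of MT-ND4L and the start of MT-ND4 share 7 bases, in capitals in the second (chrM:10745-10781, plus strand). Each pair is known to be read from a single two-frame mRNA, so their counts are not independent measurements, although in si-NC the deposited level per length (FPKM) was 6574 for MT-ATP8 and 926 for MT-ATP6. The third line holds the last 30 bases of MT-ND3 (chrM:10375-10404, plus strand), whose final base, in capitals, is all that the genome supplies of the stop codon, and the poly(A) tail completes it.
MT-ATP8/MT-ATP6: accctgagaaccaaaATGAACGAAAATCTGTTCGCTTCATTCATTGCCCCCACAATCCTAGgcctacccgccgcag
MT-ND4L/MT-ND4: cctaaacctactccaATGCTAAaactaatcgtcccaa
MT-ND3: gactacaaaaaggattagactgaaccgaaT

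The mitochondrial genes together held 5.59%, 5.40% and 5.36% of the total count in control replicates 1, 2 and 3 and 5.25%, 4.93% and 4.91% in the corresponding si-METTL16 samples, an order of replicates kept below. The share was 5.45% ± 0.127 (SD, n = 3) against 5.03% ± 0.194 (SD, n = 3), 0.42 percentage points lower after silencing, and the groups did not overlap. The exact two-sided permutation test gave p = 0.1, the smallest value that 3 against 3 samples allow. A share of the total count is not an amount of RNA per cell. In bulk RNA, fewer mitochondrial genomes per cell, less RNA from each and more counts of other genes cannot be told apart.

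The classes stood on opposite sides of the controls beneath this small net difference. The 13 mRNAs held 4.42%, 4.14% and 4.20% of the total count in si-NC and 3.87%, 3.54% and 3.60% in si-METTL16. The 2 rRNAs held 1.17%, 1.25% and 1.15% in si-NC and 1.38%, 1.38% and 1.30% in si-METTL16. The mRNA share was thus lower, and the rRNA share higher, in each silenced sample than in any control. The 22 tRNAs took 0.00507% ± 0.000617 of the count in si-NC and 0.00873% ± 0.000542 in si-METTL16 (SD, n = 3). The 9 light-strand genes took 0.0102% ± 0.000139 and 0.0134% ± 0.00047 (SD, n = 3). Both shares rest mostly on a single gene. Of the light-strand genes MT-ND6 had 1626 to 1740 counts per si-NC sample and the next, MT-TE, 19 to 25. Of the tRNAs MT-TL1 had 526 to 671 and the next, MT-TF, 61 to 85. No class overlapped between the groups, and each exact two-sided permutation test gave p = 0.1, also 0.1 after Benjamini-Hochberg adjustment over these 4 classes. Per 100 mRNA counts there were 28.1 ± 1.99 rRNA counts in si-NC and 36.8 ± 1.77 in si-METTL16 (SD, n = 3).

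**Figure D1:**
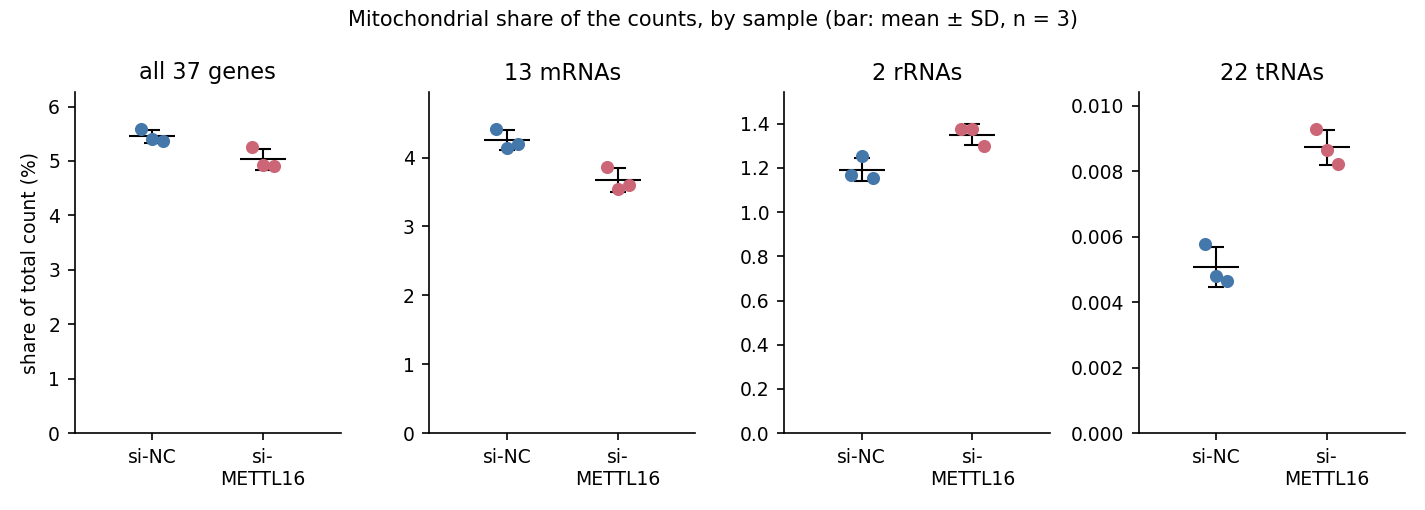
Share of the total count (%, vertical axis from 0) held by all 37 mitochondrial genes, the 13 mRNAs, the 2 rRNAs and the 22 tRNAs, with each sample as a point and the mean ± SD (n = 3) in black. The si-METTL16 points lie below the si-NC points for all genes and for the mRNAs and above them for the rRNAs and tRNAs, with no overlap in any panel.

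Gene by gene, 24 of the 37 members passed the filter on low counts and were tested: the 13 mRNAs, both rRNAs and 9 tRNAs. At an adjusted p under 0.05 in the edgeR quasi-likelihood test, 15 of the 24 differed, 7 higher and 8 lower in si-METTL16. Over all 15089 genes tested, 35.9% passed, 18.4% higher and 17.5% lower, so a call of itself was common in this comparison. The CPM of the groups did not overlap for 18 of the 24 members tested, against 50.9% of all genes tested. Without si-NC replicate 1, si-METTL16 replicate 2 or si-METTL16 replicate 3 the number called lower was 5, 4 and 5, and the mRNAs whose calls were lost are named below with the samples concerned.

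**Figure D2:**
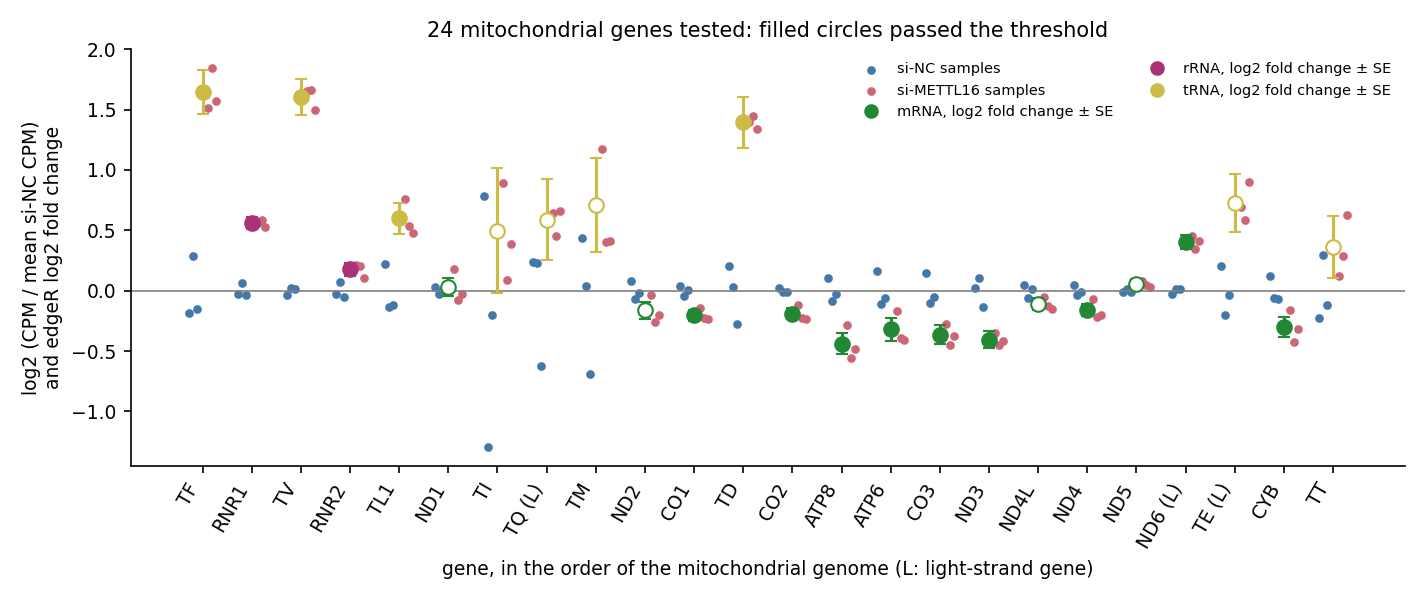
The 24 tested genes in the order of the mitochondrial genome, with the sample values as log2 of CPM over the si-NC mean (small points) and the edgeR log2 fold change of si-METTL16 against si-NC with its SE (large circles, filled where adjusted p was under 0.05). Called tRNAs and rRNAs lie above 0, from 0.18 to 1.65, and called mRNAs of the heavy-strand transcript lie between -0.44 and -0.16.

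The rRNA end of the genome rose. MT-RNR1, the rRNA of the small mitochondrial ribosomal subunit (chrM:648-1601), measured 688, 737 and 685 CPM in si-NC and 1039, 1052 and 1015 CPM in si-METTL16. All silenced samples stood well above all controls, at 147% of the control level (log2 fold change 0.56, SE 0.05, adjusted p = 3.3e-04 by edgeR). MT-RNR2, the rRNA of the large subunit (chrM:1671-3229), was among the most counted mitochondrial genes, with 10935, 11719 and 10774 CPM in si-NC and 12937, 12831 and 12016 CPM in si-METTL16. These groups lay closer together without overlapping, and the change was 0.18 (SE 0.05, adjusted p = 0.033 by edgeR). The call for MT-RNR2 was lost by DESeq2 (adjusted p = 0.083) and without any of si-NC replicate 1, si-NC replicate 3, si-METTL16 replicate 1 or si-METTL16 replicate 2 (edgeR adjusted p between 0.068 and 0.098).

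Both rRNAs come from the same end of the same transcript, and their ratio did not overlap between the groups. There were 6.29, 6.29 and 6.35 MT-RNR1 counts per 100 MT-RNR2 counts in si-NC and 8.03, 8.20 and 8.45 in si-METTL16. The ratio was 6.31 ± 0.0378 against 8.23 ± 0.21 (SD, n = 3), a gap many times the spread within either group (exact two-sided permutation p = 0.1, the smallest possible).

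The 3 tRNAs that border the rRNAs rose as well. MT-TF, the phenylalanine tRNA, had 61, 85 and 65 counts in si-NC and 192, 230 and 219 counts in si-METTL16. This was 313% of control in CPM (log2 fold change 1.65, SE 0.18, adjusted p = 6.5e-04 by edgeR). MT-TV, the valine tRNA, which serves as a structural RNA of the large mitochondrial ribosomal subunit in human cells, had 42, 44 and 45 counts in si-NC and 132, 126 and 129 counts in si-METTL16. Its change was 1.60 (SE 0.15, adjusted p = 3.6e-04 by edgeR), with far more distance between the groups than within them. MT-TL1, a leucine tRNA, was the most counted tRNA at 671, 526 and 550 counts in si-NC and 947, 770 and 853 counts in si-METTL16, and its change was smaller (0.60, SE 0.13, adjusted p = 0.011 by edgeR). Farther along the genome, MT-TD, the aspartate tRNA, had 27, 24 and 20 counts in si-NC and 60, 59 and 63 counts in si-METTL16 (log2 fold change 1.39, SE 0.21, adjusted p = 0.0026 by edgeR).

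MT-TF, MT-TV, MT-TL1, MT-TD and MT-RNR1 were called without each sample in turn. The other 5 tested tRNAs had positive log2 fold changes that did not pass the test. MT-TE (glutamate) came closest at 0.73 (SE 0.24, adjusted p = 0.052 by edgeR), with 25, 19 and 22 counts in si-NC against 34, 30 and 43 in si-METTL16. MT-TM (methionine) stood at 0.71, MT-TQ (glutamine) at 0.59, MT-TI (isoleucine) at 0.50 and MT-TT (threonine) at 0.36, with edgeR adjusted p between 0.19 and 0.49 and between 5 and 48 counts per sample.

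The remaining 13 tRNAs were too sparse to test, with 1 to 13 counts per sample, while 3 counts correspond to 0.166 to 0.191 CPM at these depths. Added together, they had 64, 41 and 48 counts in si-NC and 79, 66 and 72 counts in si-METTL16. The mean CPM was higher in si-METTL16 for all 13, and 3 of the 13 (MT-TY, MT-TG and MT-TP) had groups that did not overlap, a smaller share than the 50.9% of all genes tested. These are descriptions of few counts, and no single gene among them can be resolved at this depth.

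A count at a tRNA gene cannot be told apart as mature tRNA or as a longer, uncut transcript that crosses the gene. The libraries came from an mRNA kit, and mature tRNAs and rRNAs of mitochondria carry little or no poly(A) tail, so other RNAs without a tail were examined as well, a list added after the values of the members were seen. Of 12 such nuclear RNAs in the table, 3 were tested. RN7SL2, an RNA of the signal recognition particle, was lower in si-METTL16 (log2 fold change -1.14, adjusted p = 0.0037 by edgeR), its homolog RN7SL1 stood at -0.81 (adjusted p = 0.065) and RN7SK at 0.35 (adjusted p = 0.52). The list summed to 16.4 to 22.5 CPM in si-NC and 8.23 to 11.8 CPM in si-METTL16, with 4 at 0 in every sample. RN7SL2 and its homolog RN7SL1 made up most of the control sum, with means of 13.7 and 3.83 CPM. RN7SK, with 9 to 27 counts per sample, had a positive change with overlapping groups, whereas the groups of RN7SL1 and of RN7SL2 did not overlap. With only 3 tested, the list is too small to give a direction for RNAs without a tail. The part of RNA selection in the mitochondrial changes was not tested.

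The mRNAs of the heavy-strand transcript went the other way. Of these 12, 8 fell and none rose, where 17.5% of all genes tested fell and 18.4% rose, with a median log2 fold change of -0.20, where the median over all genes tested was -0.004. Every group of subunits had members among the 8, and they are given by complex below.

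Cytochrome c oxidase, the enzyme that passes electrons to oxygen, takes its catalytic core from MT-CO1, MT-CO2 and MT-CO3, and all 3 fell. MT-CO1 (chrM:5904-7445) measured 11102, 10486 and 10849 CPM in si-NC and 9764, 9246 and 9163 CPM in si-METTL16. The fall to 86.9% of control was small but clear of the sample spread (log2 fold change -0.20, SE 0.05, adjusted p = 0.012 by edgeR). MT-CO2 (chrM:7586-8269) measured 5543, 5416 and 5402 CPM in si-NC and 5036, 4659 and 4642 CPM in si-METTL16, a change of -0.19 (SE 0.05, adjusted p = 0.019 by edgeR) that lost its call without si-METTL16 replicate 2 (adjusted p = 0.061). MT-CO3 (chrM:9207-9990) fell further, from 4681, 3926 and 4065 CPM to 3490.1, 3084 and 3258 CPM. It was left at 77.6% of control (log2 fold change -0.37, SE 0.08, adjusted p = 0.011 by edgeR), and the groups did not overlap for any of the 3.

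ATP synthase, which uses the proton gradient to make ATP, takes 2 subunits of its membrane part from the mitochondrial genome. MT-ATP8 (chrM:8366-8572) measured 1458, 1276 and 1324 CPM in si-NC and 1109, 919 and 968 CPM in si-METTL16. This was the largest fall among the mRNAs, to 73.8% of control (log2 fold change -0.44, SE 0.08, adjusted p = 0.0069 by edgeR). MT-ATP6 (chrM:8527-9207) measured 699.9, 581 and 599.6 CPM in si-NC and 558, 478 and 472 CPM in si-METTL16. Its groups were separate by a narrow margin and its change of -0.32 (SE 0.10, adjusted p = 0.037 by edgeR) lost the call without si-NC replicate 1, si-NC replicate 3, si-METTL16 replicate 2 or si-METTL16 replicate 3 (adjusted p between 0.063 and 0.108).

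Complex III, which hands electrons from ubiquinol to cytochrome c, has a single mitochondrially encoded subunit, cytochrome b. Its gene MT-CYB (chrM:14747-15887) measured 3264, 2881 and 2865 CPM in si-NC and 2684, 2242 and 2404 CPM in si-METTL16. The fall to 81.4% of control passed the test (log2 fold change -0.30, SE 0.08, adjusted p = 0.028 by edgeR), but not without si-NC replicate 1, si-METTL16 replicate 2 or si-METTL16 replicate 3 (adjusted p between 0.066 and 0.079).

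Complex I, the entry point for electrons from NADH, takes 7 subunits from the mitochondrial genome, and these did not move together. MT-ND3 (chrM:10059-10404) had the clearest fall, from 1276, 1347 and 1145 CPM to 986, 919 and 938 CPM (log2 fold change -0.41, SE 0.07, adjusted p = 0.0040 by edgeR). MT-ND4 (chrM:10760-12137) measured 6940.1, 6576 and 6688 CPM in si-NC and 6405, 5801 and 5864 CPM in si-METTL16. Its change of -0.16 (SE 0.05) passed narrowly (adjusted p = 0.049 by edgeR) and was kept without only 1 of the 6 samples, si-METTL16 replicate 1. It was also lost by DESeq2 (adjusted p = 0.086) and, by edgeR, with DESeq2 size factors (0.051), with no filter (0.059) and with at least 10 counts in every sample (0.061).

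Another 4 complex I mRNAs did not pass. MT-ND2 (chrM:4470-5511), at 2099, 1892 and 1951 CPM in si-NC and 1927, 1656 and 1722 CPM in si-METTL16, had overlapping groups and a log2 fold change of -0.16 (SE 0.07, adjusted p = 0.113 by edgeR), which passed without si-METTL16 replicate 1 (adjusted p = 0.028). MT-ND4L (chrM:10470-10766), at 1655, 1536 and 1612 CPM in si-NC and 1541, 1465 and 1444 CPM in si-METTL16, stood at -0.11 (SE 0.05, adjusted p = 0.130 by edgeR). MT-ND1 (chrM:3307-4262), the first mRNA after the rRNAs, measured 2097, 2018 and 2060.3 CPM in si-NC and 2336, 1947 and 2024 CPM in si-METTL16. The high si-METTL16 replicate 1 set its sign: the log2 fold change was 0.03 (SE 0.07, adjusted p = 0.770 by edgeR) with it and -0.06 without it. MT-ND5 (chrM:12337-14148) measured 3064, 3116 and 3058 CPM in si-NC and 3256, 3185 and 3147 CPM in si-METTL16, slightly higher in each silenced sample but not past the test (0.05, SE 0.04, adjusted p = 0.329 by edgeR).

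MT-ND6 (chrM:14149-14673, minus strand) is the only mRNA of the light-strand transcript, and the only mRNA that rose. It measured 96.2, 99.3 and 99.3 CPM in si-NC and 134, 125 and 131 CPM in si-METTL16. Each group was tight, and the level in si-METTL16 was 132% of control (log2 fold change 0.40, SE 0.06, adjusted p = 0.0019 by edgeR, called without each sample in turn). Of the 8 light-strand tRNAs only MT-TQ and MT-TE could be tested, and their groups did not overlap although neither passed. Whether counting used strand is not given in the sources used here, so a count at MT-ND6 or at a light-strand tRNA can include RNA of the heavy-strand transcript that runs across the same bases.

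Because most but not all of the mRNAs were lower, the same counts were also compared with the sum of the 13 mRNAs of each sample as the library size, which asks whether a gene changed its place within the mitochondrial mRNA pool. Relative to that sum, 3 mRNAs were higher and 1 was lower by edgeR. Over all 15089 genes 37.3% passed, 28.4% higher and 8.89% lower, so a call higher was common on this scale. MT-ND6 made up 0.219%, 0.241% and 0.238% of the 13-mRNA count in si-NC and 0.342%, 0.349% and 0.361% in si-METTL16 (log2 change 0.59, SE 0.08, adjusted p = 9.0e-04 by edgeR). MT-ND5 made up 6.97%, 7.57% and 7.33% in si-NC and 8.30%, 8.91% and 8.70% in si-METTL16 (0.24, SE 0.06, adjusted p = 0.016 by edgeR). MT-ND1 made up 4.77%, 4.90% and 4.94% in si-NC and 5.96%, 5.45% and 5.60% in si-METTL16 (0.22, SE 0.06, adjusted p = 0.024 by edgeR). MT-ND1 and MT-ND5, whose CPM did not pass in either direction, took a larger part of the mRNA pool in every silenced sample. This depends on the scaling: relative to all mitochondrial counts, rRNAs included, 1 mRNA was higher (MT-ND6) and 4 were lower, and MT-ND1 (0.12, adjusted p = 0.146 by edgeR) and MT-ND5 (0.15, adjusted p = 0.058 by edgeR) did not pass.

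On the other side, MT-ATP8 made up 3.32%, 3.10% and 3.17% of the 13-mRNA count in si-NC and 2.83%, 2.57% and 2.68% in si-METTL16 (-0.25, SE 0.06, adjusted p = 0.019 by edgeR). MT-ND3 at -0.22 (adjusted p = 0.060 by edgeR) and MT-CO3 at -0.17 (adjusted p = 0.063 by edgeR) had groups that did not overlap but did not pass. The same held for MT-CYB at -0.11 (adjusted p = 0.217 by edgeR). MT-ND4L at 0.08 (adjusted p = 0.291 by edgeR) and MT-ND4 at 0.03 (adjusted p = 0.677 by edgeR) did not pass either. Their shares were nonetheless higher in every silenced sample than in any control. MT-CO1 and MT-CO2, the most counted mRNAs per length, kept shares that overlapped between the groups, 25.6% ± 0.388 and 12.9% ± 0.281 of the pool in si-NC and 25.4% ± 0.496 and 12.9% ± 0.119 in si-METTL16 (SD, n = 3). Single samples bear on these calls: the number called lower was 0 without si-NC replicate 1, si-NC replicate 3, si-METTL16 replicate 2 or si-METTL16 replicate 3, and the number called higher was 1 without si-NC replicate 3 or si-METTL16 replicate 3. On the same scale both rRNAs and 5 tRNAs were higher, so 10 of the 24 tested members were higher and 1 was lower. The rRNAs and tRNAs lie outside the pool, and the lower mRNA sum in si-METTL16 raised their changes through the scaling. MT-RNR1 went from 0.56 to 0.75, and MT-TE from 0.73 to 0.92, where it passed (adjusted p = 0.025 by edgeR). Their calls on this scale are therefore not separate results.

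**Figure D3:**
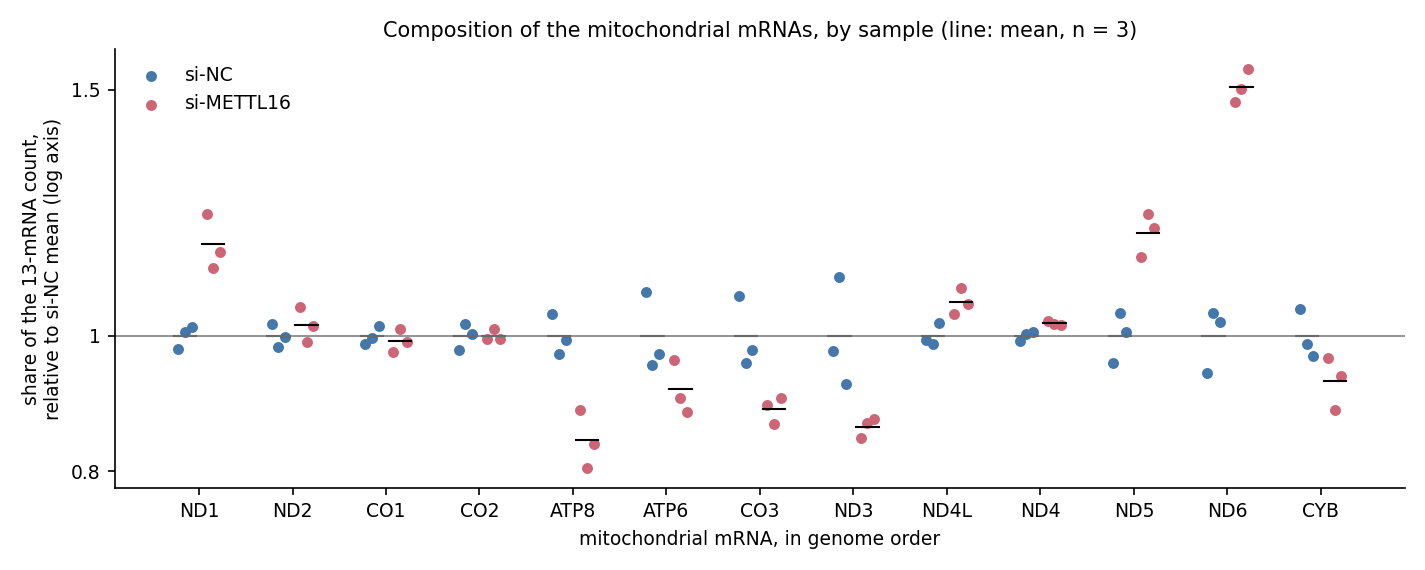
Share of the 13-mRNA count held by each mitochondrial mRNA, in genome order, relative to the si-NC mean (log axis), with samples as points and group means as lines (n = 3 each). MT-ND1, MT-ND4L, MT-ND4, MT-ND5 and MT-ND6 lie above the controls in all 3 si-METTL16 samples. MT-ATP8, MT-CO3, MT-ND3 and MT-CYB lie below them, whereas MT-ND2, MT-CO1, MT-CO2 and MT-ATP6 overlap.

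Levels of different genes can be set side by side only per length, in FPKM (counts scaled by gene length and by total count, as deposited). In si-NC the order of mean FPKM began with MT-CO2 at 8021 ± 109, MT-RNR2 at 7190.0 ± 323, MT-CO1 at 7054 ± 201 and MT-ATP8 at 6574 ± 456 (SD, n = 3). MT-CO2 lay above MT-RNR2 in every si-NC sample, whereas the ranges of MT-RNR2 and MT-CO1, and of MT-CO1 and MT-ATP8, overlapped. Below them came MT-ND4L at 5423 ± 203, MT-CO3 at 5420 ± 513 and MT-ND4 at 4916 ± 135 FPKM (SD, n = 3), each overlapping its neighbour, and then MT-ND3, MT-CYB, MT-ND1, MT-ND2 and MT-ND5, from 3652 down to 1709 FPKM without overlap between neighbours.

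In si-METTL16 the large rRNA came first, with MT-RNR2 at 8005 ± 288 FPKM and MT-CO2 at 6924 ± 290 FPKM (SD, n = 3). At the lower end, MT-RNR1 had 741 ± 30.5 FPKM in si-NC and 1075 ± 17.6 FPKM in si-METTL16, and MT-ATP6 had 926 ± 94.1 FPKM in si-NC and 731 ± 66.1 FPKM in si-METTL16 (SD, n = 3). The level of MT-ATP6, and its place below MT-RNR1 in si-METTL16, can depend on how its reads were divided from those of a nuclear copy, described next. MT-ND6 had 188 ± 3.52 FPKM in si-NC and 245 ± 8.36 FPKM in si-METTL16, the lowest of the mRNAs in both groups. The tRNAs spanned a wide range in si-NC, from MT-TL1 at 456 ± 65.8 FPKM to MT-TF at 58.2 ± 11.0 FPKM and MT-TV at 37.2 ± 0.832 FPKM (SD, n = 3), with the others lower still.

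Copies of mitochondrial DNA in the nuclear genome can take reads from the genes they resemble. The table held 407 such copies by symbol, of which 9 were tested, and only MT-ATP6 and MT-ND2 had copies with a sizeable share of the counts. MTATP6P1 (chr1:633696-634376) had 30898 counts over the 6 samples, and the copies of MT-ATP6 held 35.0% of the counts of gene and copies together, 35.4% in si-NC and 34.5% in si-METTL16. It equals MT-ATP6 at 671 of 681 bases, with a longest identical run of 141 bases. It was itself lower in si-METTL16 (344 ± 29.0 CPM against 265 ± 25.6 CPM, SD, n = 3; log2 fold change -0.38, SE 0.09, adjusted p = 0.016 by edgeR), in the same direction as MT-ATP6, and reads of the pair cannot be told apart with certainty.

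MTND2P28 (chr1:629640-630683) had 20366 counts and equals MT-ND2 at 1025 of 1042 bases, and the copies of MT-ND2 held 9.68% of the counts of gene and copies together. Its log2 fold change was -0.18 (SE 0.09, adjusted p = 0.170 by edgeR), near that of MT-ND2. For the other mitochondrial mRNAs and rRNAs the copies held at most 0.284%, the value for MT-RNR2. With the counts of the copies added to each gene, 7 members were called higher and 8 lower, as without them.

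The ends of the mRNAs were read from the genome because tailing completes some of the stop codons. Of the 13 mRNAs, 6 end before a whole stop codon (MT-ND1, MT-ND2, MT-CO3, MT-ND3, MT-ND4 and MT-CYB) and 7 end in a whole codon. That last codon is AGA in MT-CO1, AGG in MT-ND6 and TAA or TAG in the others. Among the 6, 4 fell and none rose. Among the 7, 4 fell, including MT-ATP8 and MT-ATP6 of the same two-frame mRNA, and 1 rose. Over all genes tested 17.5% fell and 18.4% rose. Both kinds of end were found among the mRNAs that fell, and a part of the ends in the changes was not tested.

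Nuclear genes assigned to copying, transcribing, processing and modifying the mitochondrial genome and its RNAs were described with lists. A place in a list does not mean that a gene acts only, or mainly, in mitochondria. All 81 genes of these lists were tested, and 24 passed (29.6%, against 35.9% of all genes), 19 higher and 5 lower, with a median log2 fold change of 0.14. Among 13 genes of mtDNA replication and maintenance 5 were higher and none lower. Among 9 genes listed under mtDNA transcription 1 was higher and 3 were lower, including TFB1M, which acts on rRNA as described below. RNA processing, stability and decay had 8 higher and 1 lower of 28, and rRNA and tRNA modification had 5 higher and 1 lower of 31. The number called lower was between 1 and 3 without any of si-NC replicates 1, 2 and 3 and si-METTL16 replicates 1 and 3, and the number called higher was 12 without si-NC replicate 1.

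The highest of the called genes was DNA2, a nuclease and helicase of nuclear and mitochondrial DNA, at 15.7, 17.6 and 16.8 CPM in si-NC and 41.3, 47.4 and 36.3 CPM in si-METTL16 (log2 fold change 1.32, SE 0.12, adjusted p = 3.3e-04 by edgeR). RBFA, which helps to mature the small-subunit rRNA, rose by 0.84 (SE 0.14, adjusted p = 0.0040 by edgeR), and MGME1, a mitochondrial exonuclease, rose by 0.67 (SE 0.07, adjusted p = 5.7e-04 by edgeR). The lowest was TFB1M, which dimethylates adenines of the small-subunit rRNA, at 22.3, 30.4 and 26.4 CPM in si-NC and 13.4, 17.2 and 14.8 CPM in si-METTL16 (-0.80, SE 0.15, adjusted p = 0.0059 by edgeR). RBFA and TFB1M both act on the RNA of MT-RNR1 and moved in opposite directions, with groups that did not overlap for either. MTERF2, of the mitochondrial terminator family, at -0.63 (SE 0.18, adjusted p = 0.028 by edgeR) kept its call without 2 of the 6 samples, si-NC replicate 3 and si-METTL16 replicate 2. MTFMT, which formylates the initiator tRNA, at -0.53 (SE 0.15, adjusted p = 0.030 by edgeR) kept it without 1, si-NC replicate 2.

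Of the genes most directly tied to mitochondrial transcription, the polymerase POLRMT stood at -0.17 (SE 0.11, adjusted p = 0.276 by edgeR) and the packaging and initiation factor TFAM at 0.14 (SE 0.07, adjusted p = 0.150 by edgeR), with overlapping groups for both. The initiation factor TFB2M rose, from 52.7, 46.9 and 50.9 CPM to 75.9, 75.2 and 69.7 CPM (0.55, SE 0.08, adjusted p = 0.0017 by edgeR). LRPPRC, which protects the heavy-strand mRNAs and promotes their tailing, rose from 651, 659.7 and 634 CPM to 903, 903 and 873 CPM (0.46, SE 0.04, adjusted p = 4.3e-04 by edgeR). The groups of TFB2M and of LRPPRC did not overlap. Its partner SLIRP stood at 0.20 (SE 0.10, adjusted p = 0.152 by edgeR), and TRMT10C, a subunit of the mitochondrial RNase P that cuts tRNA ends, at 0.03 (SE 0.09, adjusted p = 0.843 by edgeR).

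Of 10 nuclear regulators of mitochondrial biogenesis, 9 were tested, with 2 higher and 2 lower, or 44.4% called beside 35.9% of all genes. The 4 are named here after their values were seen. PPRC1, a coactivator of the PGC-1 family, rose by 0.31 (SE 0.09, adjusted p = 0.032 by edgeR) and the transcription factor TFE3 rose by 0.29 (SE 0.07, adjusted p = 0.014 by edgeR). The ones that fell were PPARGC1A, the coactivator PGC-1 alpha, and its partner receptor ESRRA. PPARGC1A had few counts, 30, 18 and 56 in si-NC and 4, 6 and 7 in si-METTL16 (log2 fold change -2.54, SE 0.51, adjusted p = 0.0079 by edgeR). ESRRA measured 34.9, 32.0 and 36.6 CPM in si-NC and 20.0, 18.7 and 18.9 CPM in si-METTL16 (-0.85, SE 0.09, adjusted p = 5.9e-04 by edgeR), a fall of every silenced sample below every control.

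The nuclear subunits of the same complexes were counted for comparison with the mitochondrial mRNAs. Of 75, all tested, 30 passed (40.0%, near the 35.9% of all genes), 10 higher and 20 lower, with a median log2 fold change of -0.12, against a median of -0.19 over the 13 mitochondrial mRNAs. ATP synthase had 8 of 18 nuclear subunits lower, where 17.5% of all genes were lower, 2 higher and a median of -0.26, beside -0.44 and -0.32 for MT-ATP8 and MT-ATP6. Complex IV had 3 of 11 lower, 1 higher and a median of -0.18, complex III had 2 of 9 lower, 2 higher and a median of -0.14, and complex I had 7 of 37 lower, 5 higher and a median of -0.03. Without si-NC replicates 2 or 3 or si-METTL16 replicates 1 or 3 the number called lower was between 10 and 13, and the number called higher was 6 without si-NC replicate 1, si-NC replicate 3 or si-METTL16 replicate 3.

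**Figure D4:**
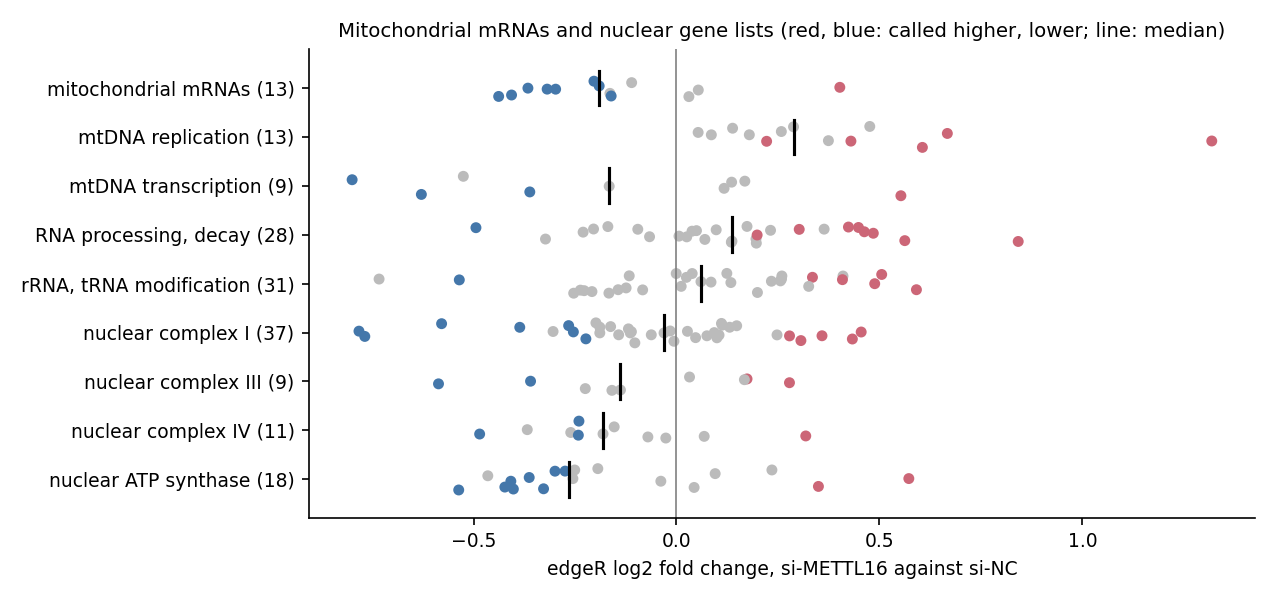
The edgeR log2 fold change of si-METTL16 against si-NC (horizontal axis) for each tested gene of the mitochondrial mRNAs and of 8 lists of nuclear genes, with the number tested in brackets, called genes in red (higher) or blue (lower), others in grey, and the list median as a line; vertical scatter within a row carries no value. The mitochondrial mRNAs reach from -0.44 to 0.40 with 8 lower and 1 higher, and the medians run from -0.26 for nuclear ATP synthase subunits to 0.29 for mtDNA replication.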

How the data were processed

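RNA-seq of 6 PANC-1 samples, 3 si-NC and 3 si-METTL16, was analysed, with groups and replicate numbers from the sample titles. Whole-number counts without normalization were deposited for each gene, together with FPKM values scaled by gene length and total count. The submitters' processing notes name HISAT2 2.0.4, StringTie 1.3.0 and GRCh38. Which program counted, its annotation, its handling of multiply mapping reads and its use of strand are not given in the sources used here, so counts of overlapping genes, of genes on opposite strands and of near-identical nuclear copies are uncertain. The labels name an mRNA library kit.

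The members and gene lists were chosen with earlier results of these data known. All 37 members were accounted for, mRNAs and rRNAs were each named, tRNAs were named from a summed count of 60, and nuclear genes were named as the 3 highest and 3 lowest called of the mtDNA expression lists plus 6 set names. Columns of the table for samples outside the series numbered 0.

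Counts were scaled by TMM, filtered with filterByExpr (minimum count 10, minimum total 15; 15089 genes) and tested in R 4.3.3 by the quasi-likelihood functions of edgeR 4.0.16, p-values being adjusted by Benjamini-Hochberg over all genes tested with a threshold of 0.05. The methods name limma without a transformation, so limma 3.58.1 served as an alternative, on voom values and on log2 FPKM with a pseudocount of 1 or 0.1 (mean FPKM of 1 or more), as did DESeq2 1.42.0. Shares of the total count were compared with exact two-sided permutation tests, for which the smallest p is 0.1. Other alternatives were DESeq2 size factors, total count, TMM without mitochondrial genes, no filter, 10 counts in every sample, a threshold of 0.01, nuclear copies added, the replicate number as a block and each sample left out. Copies of a library were not found: counts of samples of a group differed by a chi-square per degree of freedom of at least 15.6. Sequences came from GRCh38 with genes of GENCODE release 44. Scripts were tested on simulated data. Few counts limited the tRNAs, and total counts of 15725298 to 18054436 left counting error small for mRNAs and rRNAs. The MeRIP-seq, cell, mouse and tissue experiments were not analysed here.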

Additional observations from a re-analysis of the deposited data

How the results depend on the processing

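None of the 15 called members changed direction under any alternative run. For single genes, 516 values kept direction and call, 53 lost the call, 6 gained it and 3 changed sign without being called: MT-ND1 without si-METTL16 replicate 1 and TRMT10C without si-NC replicate 1 or si-METTL16 replicate 1. With single samples left out, the log2 fold change ran from -0.0553 to 0.0809 for MT-ND1 and from -0.0405 to 0.0801 for TRMT10C. Of the main counts and shares, 118 values stayed and 27 moved. A threshold of 0.01 left 2 members called lower, against 8. With single samples left out, the members called lower numbered 4 to 9. Within the mRNA pool, leaving samples out gave 1 to 3 called higher and 0 to 1 lower, and scaling to all mitochondrial counts gave 1 higher and 4 lower. With samples left out, the mtDNA expression lists had 12 to 15 genes higher and 1 to 4 lower, and the nuclear respiratory subunits 6 to 10 higher and 10 to 16 lower. Leaving samples out makes the test smaller.

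Deviations of same-numbered samples were barely correlated (0.025, 0.037 and 0.030). For most tested members the SE of the log2 fold change was nonetheless smaller in the edgeR fit that included the block. It went from 0.085 to 0.041 for MT-ATP8 and from 0.095 to 0.045 for MT-ATP6. It was larger for MT-TV (0.147 to 0.167), MT-ND6, MT-TQ, MT-TD, MT-TE and MT-TT. Whether same-numbered samples share more than a number was not tested. With the replicate block MT-ND2 passed (adjusted p = 0.029 by edgeR), 7 members were higher and 9 lower, 3 mRNAs were lower within the pool, 3 genes of the mtDNA expression lists were lower, and exact sign flips of the shares gave p = 0.25, the smallest possible. The sparse tRNAs are limited by their few counts, and the reason for these was not tested.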
